A study of Mus musculus with 10 samples.

Results

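Il6, Lif, Vcam1, Icam1, Ptgs2, Nfkbia, Tnfaip3 and Relb are genes of the NF-kB pathway and inflammatory mediators that it drives. They were followed here across 10 Affymetrix arrays of primary mouse embryonic fibroblasts. Members were all probe sets whose symbol in the probe-to-gene annotation was one of 10 names, namely these 8 genes, Il1rl1 (the receptor of interleukin-33) and Nfkb1 (the p105/p50 subunit). That rule found 15 probe sets of 8 genes among 20380 probe sets with 1 gene symbol. No probe set carried the symbol Il1rl1 or Nfkb1 in that annotation, so these genes were not analysed here. The study set 3 arrays of wild type cells beside 3 of Snf5-/- cells and 4 of Brg1-/- cells. Smarcb1 encodes Snf5, a core subunit, and Smarca4 encodes Brg1, an ATPase subunit, of Swi/Snf, a complex that moves nucleosomes and suppresses tumours. All 3 groups had a mixed C57BL/6 and 129 background and were taken from E13.5 embryos. The same treatment was recorded for all of them, wild type included, namely Cre recombinase delivered by a retrovirus and selection with puromycin at 2.5 ug/ml. Whether the replicate arrays stand for separate embryos or cultures is not stated in the labels, so p-values measure only the spread between these arrays, which may be technical.

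NF-kB is a family of dimeric transcription factors that IkB proteins hold in the cytoplasm. Tumour necrosis factor, interleukin-1 and bacterial products act through receptors and adaptors on the IkB kinase, which marks IkB for breakdown and lets the dimers enter the nucleus. Nfkbia (IkB-alpha) and Tnfaip3 (A20, a ubiquitin-editing enzyme) are targets that switch the signal off again. In fibroblasts the pathway is known for driving cytokines such as interleukin-6, adhesion molecules that bind leukocytes, and the prostaglandin-making enzyme cyclooxygenase-2.

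The promoter windows below show which measured members carry an NF-kB consensus close to their start. They were taken from RefSeq, mouse build GRCm38.p6, and the consensus (10 bases, searched by name on both strands, without spelling out its ambiguous letters) is in capitals. Each line is 1 strand of 60 bases, written 5′ to 3′ in the direction of the gene. The Il6 window lies at chr5:30013045-30013104 on the plus strand, and its match ended 35 bases before the start. The Lif window lies at chr11:4257365-4257424 on the plus strand, with its match, found on both strands, ending 169 bases before the start. On the minus strand, the Nfkbia window lies at chr12:55492648-55492707 and the Tnfaip3 window at chr10:19015411-19015470, with matches ending 20 and 3 bases before the start. A second Tnfaip3 match, found on both strands, ended 116 bases before the same start, in a window at chr10:19015501-19015560.
Il6: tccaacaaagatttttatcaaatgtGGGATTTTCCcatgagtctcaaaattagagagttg
Lif: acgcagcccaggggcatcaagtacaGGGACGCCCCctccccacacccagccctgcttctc
Nfkbia: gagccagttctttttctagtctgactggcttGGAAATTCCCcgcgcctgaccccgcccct
Tnfaip3: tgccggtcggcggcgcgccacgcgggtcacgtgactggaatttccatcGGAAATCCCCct
Tnfaip3, second match: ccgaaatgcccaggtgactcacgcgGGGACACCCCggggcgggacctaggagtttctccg
Of 6 measured members with a promoter in the table, these 4 held the consensus within 250 bases before a start, as did 7.25% of all 32851 promoters searched. Both Tnfaip3 matches lay at 1 of 2 starts in the table. The windows of Ptgs2 and Icam1 held no match to these letters. Vcam1, Relb and Nfkb1 promoters were not analysed here. A match is a description of the sequence and not a bound site.

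Values are MAS5 probe set intensities on a linear scale, as deposited. Array medians ran from 146 to 234 and the lowest 2 were of Brg1-/- arrays, so each change is given after quantile normalization between arrays (log2, the main scale) and also on the deposited log2 scale. A gene is said to have risen, fallen or changed only where limma gave a Benjamini-Hochberg adjusted p below 0.05 on both scales. Probe sets were tested when they reached the 40th percentile in at least 3 arrays, which kept 13369 of them, including 14 of the 15 member probe sets. The background of an array, taken as the highest of 27 control probe sets for Bacillus subtilis genes, was 26.7 to 57.4. The targeted genes followed the labels, with Smarcb1 at 279 to 331 in Snf5-/- against 844 to 1119 in wild type, and Smarca4 at 387 to 607 in Brg1-/- against 2275 to 3829. All 11 fibroblast markers were above background in every array. Levels of different probe sets are not comparable on an array, and in RNA from a whole culture fewer cells of a type and less RNA per cell cannot be told apart.

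Snf5-/- replicate 2 stood apart from the other arrays of its genotype. All 14 tested member probe sets were higher there than the mean of Snf5-/- replicates 1 and 3, with a median excess of 1.38 (log2, range 0.53 to 2.78), while the median over all tested probe sets was -0.03. Only 1.38% of all tested probe sets lay at or above that member median in this array. This array held the highest value of all 10 arrays for 11 of the 14 member probe sets, against 8.78% of all tested probe sets. The 14 probe sets stand for only 8 genes, so several are repeated readings of the same gene. Members were chosen with earlier results of these data known, so these shares are a description only. In fold, its excess over the mean of the other Snf5-/- arrays was 6.87 for Il6, 4.55 for Lif, 3.07 for Tnfaip3, 2.60 to 3.25 for Nfkbia, 2.47 and 2.62 for Ptgs2, 2.05 for Relb, 1.87 for Icam1 and 1.44 to 1.68 for Vcam1. The cytokines thus differed most between Snf5-/- arrays, and the adhesion molecules least. In the other 9 arrays the median member deviation from the rest of the group lay between -0.86 and 0.29.

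**Figure D1:**
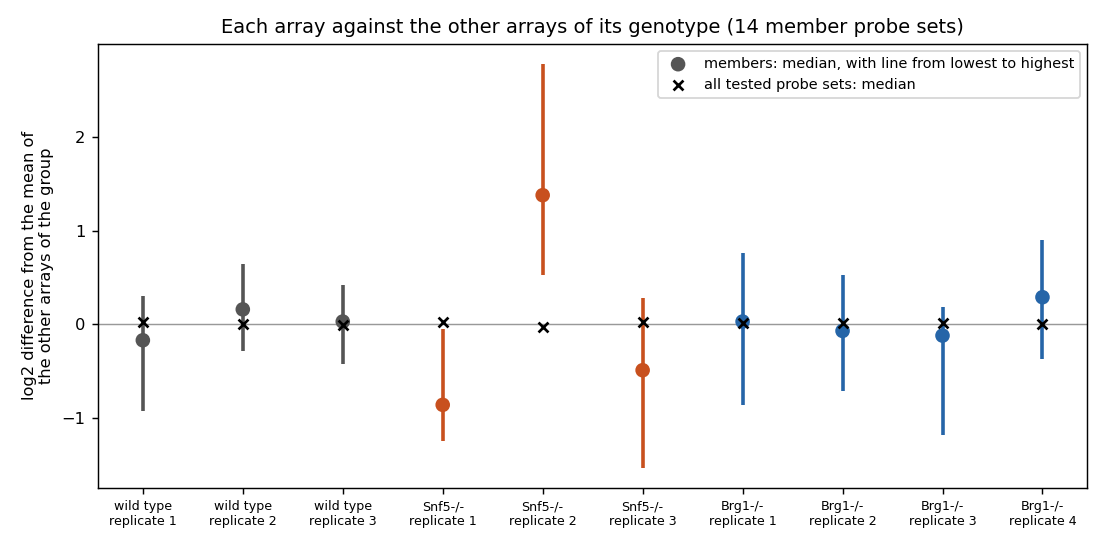
For each of the 10 arrays (x axis), the difference of its quantile-normalized log2 values from the mean of the other arrays of the same genotype (y axis, log2), with the median of 14 member probe sets as a point, their range as a line and the median of all tested probe sets as a cross. Snf5-/- replicate 2 sits at 1.38 and its whole line lies above 0, while the crosses of all arrays stay between -0.03 and 0.03.

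In summed intensity, macrophage and leukocyte markers and interferon-induced genes were highest of all 10 arrays in that array, whereas endothelial and mast cell markers were not. Summed intensity of 20 macrophage and leukocyte markers was 13350 in Snf5-/- replicate 2, against 3686 and 4327 in replicates 1 and 3, 4665 to 7980 in wild type and 3004 to 6102 in Brg1-/-. All 20 had their highest Snf5-/- value there. The lysozyme gene Lyz2 was at 5092 against 1007 and 1413, and the pan-leukocyte gene Ptprc (CD45) at 129 against 49.3 and 70.0. Itgam was at or below background in 8 of the 10 arrays, replicate 2 included. Interferon-induced genes (8 measured of 10) summed to 3473, 19800 and 10890 in Snf5-/- replicates 1 to 3, against 783 to 945 in wild type and 2119 to 2687 in Brg1-/-. Endothelial markers (10 genes), whose cells carry much Vcam1 and Icam1 when inflamed, did not follow this pattern, with a sum of 712 in replicate 2, 897 and 939 in Snf5-/- replicates 1 and 3, and 1055 to 1083 in wild type. Pecam1 and Tie1 were at or below background in 9 and 10 of the arrays, whereas Kdr, Egfl7 and Ramp2 were above it in all 10. Mast cell markers (8 genes) summed to 266 in replicate 2, 257 and 165 in replicates 1 and 3, 233 to 321 in wild type and 121.5 to 320.4 in Brg1-/-. Their mean log2 value, relative to all arrays, was 0.37 in replicate 2 against 0.02 and -0.76. Fcer1a, Hdc and Mcpt4 were at or below background in all 10 arrays, Cpa3 and Ms4a2 in 5 and Kit in 3. The part of leukocyte RNA or of the interferon state in the member values was not tested. For this reason the changes of the member genes in Snf5-/-, and the calls of other pathway genes there, are also given without replicate 2.

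Cyclooxygenase-2 was the member that changed in both mutants, and it fell. Of the 14 member probe sets, 0 rose and 1 fell in Snf5-/- (Ptgs2), and 0 rose and 2 fell in Brg1-/- (both Ptgs2). Among all 13369 tested probe sets, 2.80% rose and 8.03% fell in Snf5-/-, and 3.20% rose and 12.2% fell in Brg1-/-, so the share of members that fell (1 or 2 of 14) was near the background in both. On the quantile-normalized scale alone, 1 member probe set passed in Snf5-/- (16.8% of all) and 2 in Brg1-/- (25.0% of all). On the deposited scale alone, 3 passed in Snf5-/- (20.7% of all) and 6 in Brg1-/- (46.4% of all), all lower. Before adjustment, 7 member probe sets had p below 0.05 in Snf5-/- and 2 in Brg1-/- on the quantile-normalized scale (31.2% and 37.5% of all), and 4 and 7 on the deposited scale (36.1% and 55.3% of all). The deposited scale carried a general shift, with a median over all tested probe sets of -0.30 in Snf5-/- and -0.48 in Brg1-/-, and 13.7% and 6.96% of its calls were higher, against 52.3% and 51.3% after quantile normalization. The median member change on the quantile-normalized scale was 0.62 in Snf5-/- (all probe sets -0.01) and -0.09 in Brg1-/- (all 0.00). Both comparisons use the same wild type arrays.

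**Figure D2:**
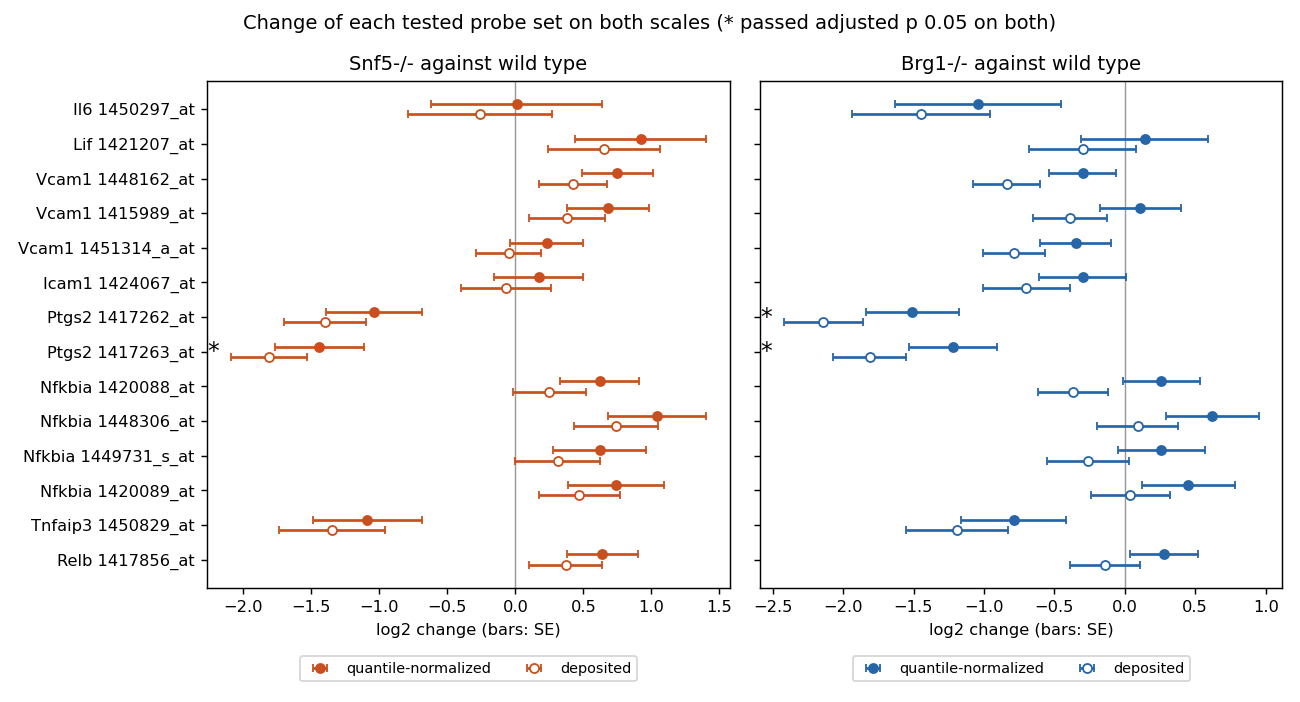
Log2 change against wild type (x axis, with SE bars) of the 14 tested member probe sets (y axis) in Snf5-/- (left, n = 3 against 3) and Brg1-/- (right, n = 4 against 3), filled on the quantile-normalized and open on the deposited scale, with a star where adjusted p was below 0.05 on both. Only Ptgs2 carries stars, and the open points lie to the left of the filled ones throughout.

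Ptgs2 encodes cyclooxygenase-2, the inducible enzyme that commits arachidonic acid to prostaglandin synthesis. Its brighter probe set, 1417262_at, read 10807, 6937 and 6558 in wild type replicates 1 to 3, 2848, 5080.2 and 1834 in Snf5-/- replicates 1 to 3 and 2572, 1445, 1471 and 1905 in Brg1-/- replicates 1 to 4. The second, 1417263_at, read 3849, 3678 and 3679 in wild type arrays, 729, 1876 and 878 in Snf5-/- arrays and 1498, 845, 945 and 1081 in Brg1-/-. For both probe sets every mutant array lay below every wild type array, on either scale. The share of all tested probe sets whose groups do not overlap was not computed, here or for the members below. Of the mutant arrays, Snf5-/- replicate 2 was nearest to wild type. In means, 1417262_at was 8101 ± 2351 (SD, n = 3) in wild type, 3254 ± 1661 (SD, n = 3) in Snf5-/- and 1848 ± 526 (SD, n = 4) in Brg1-/-.

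Both Ptgs2 probe sets fell in Brg1-/-. Their log2 changes were -1.51 ± 0.33 (SE, limma adjusted p = 0.00538, 2.86-fold lower) for 1417262_at and -1.22 ± 0.31 (adjusted p = 0.0129, 2.32-fold lower) for 1417263_at, with deposited changes of -2.14 (adjusted p = 1.84e-05) and -1.81 (5.25e-05). In Snf5-/-, 1417263_at fell by 1.44 ± 0.33 (adjusted p = 0.0120, 2.71-fold lower; deposited -1.81, adjusted p = 0.000287). The other probe set had -1.04 ± 0.35 in Snf5-/- (adjusted p = 0.0601; deposited 0.00317), so the pair disagreed on the call but not on the direction. Leaving out Snf5-/- replicate 2 brought both below the threshold on both scales, at -1.47 (adjusted p = 0.00443) and -1.90 (0.000297). Leaving out wild type replicate 3 put 1417263_at just above it on the quantile-normalized scale, with adjusted p = 0.0503 in Snf5-/- and 0.0549 in Brg1-/-. Snf5-/- and Brg1-/- did not differ beyond their spread, at -0.48 (95% interval -1.18 to 0.23) and 0.22 (-0.45 to 0.90) for Brg1-/- against Snf5-/- (limma adjusted p = 0.423 and 0.716). Without Snf5-/- replicate 2 these differences were -0.04 (adjusted p = 0.951) and 0.69 ± 0.21 (adjusted p = 0.0964; deposited 0.41, adjusted p = 0.273), so their size rested on that array.

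**Figure D3:**
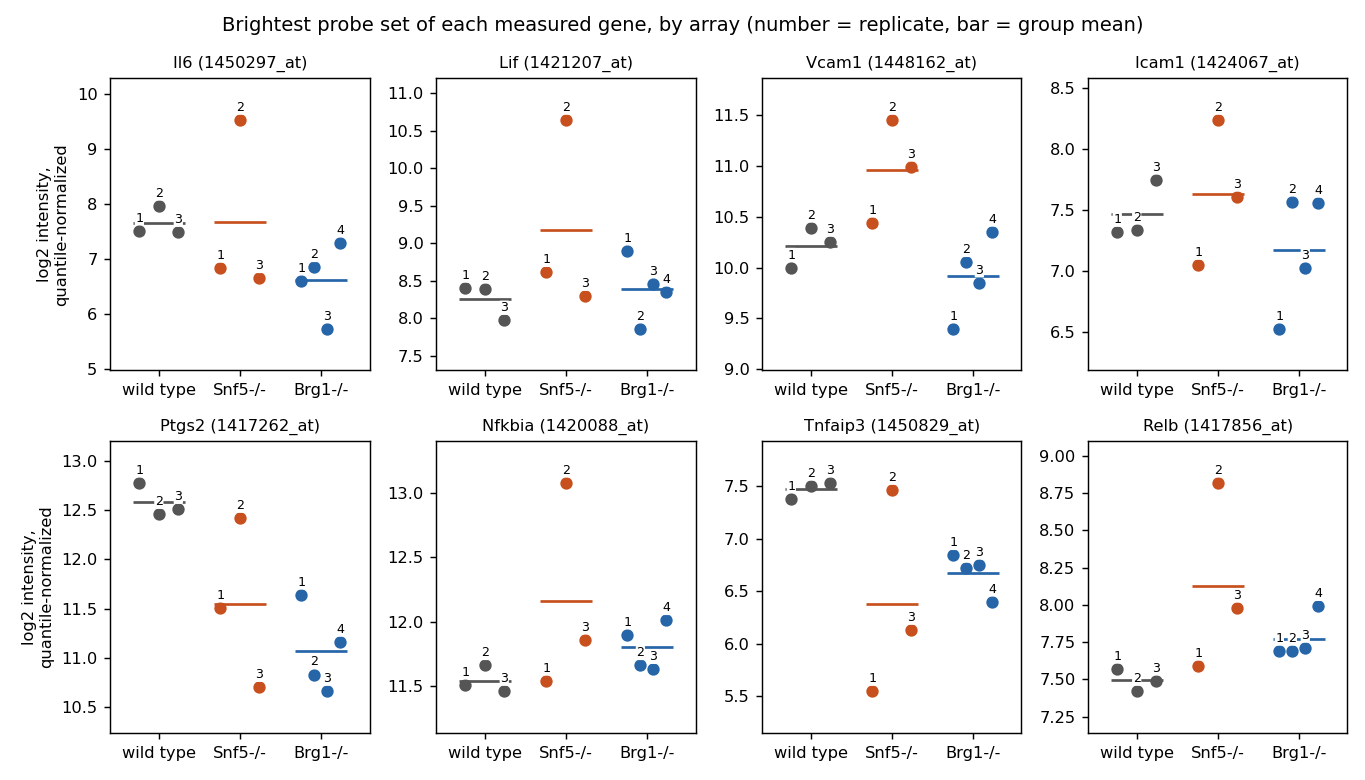
Quantile-normalized log2 intensity (y axis, scale differs by panel) of the brightest probe set of each of the 8 measured genes in wild type, Snf5-/- and Brg1-/- arrays (x axis), 1 numbered point per replicate and a bar at the group mean. Snf5-/- replicate 2 is the highest point of its group in every panel, and the wild type points of Ptgs2 lie above all others.

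Tnfaip3, the A20 brake on NF-kB, was lower in mutant arrays but did not pass on both scales in the fit of all 10 arrays. It read 221, 207 and 200.3 in wild type arrays, 45.5, 167 and 73.1 in Snf5-/- arrays and 95.4, 86.7, 101 and 83.4 in Brg1-/-, and Snf5-/- replicate 1 was at or below background. On the deposited scale no mutant array reached the lowest wild type value. The closest was Snf5-/- replicate 2 at 167, and after quantile normalization it lay within the wild type range. The log2 change in Snf5-/- was -1.09 ± 0.40 (limma adjusted p = 0.0795; deposited -1.35, adjusted p = 0.0201), and without replicate 2 it was -1.64 (adjusted p = 0.00344; deposited 0.00173). In Brg1-/- it was -0.79 ± 0.37 (adjusted p = 0.140; deposited -1.19, adjusted p = 0.0125). A fit of only the wild type and Brg1-/- arrays gave -0.79 on the quantile-normalized scale (limma adjusted p = 0.0143). Removal of Snf5-/- replicate 2 left that Brg1-/- change at -0.79 with an SE of 0.25, and adjusted p was then 0.0335 (deposited 0.00405); the wild type and Brg1-/- arrays were the same, while the shared spread, the residual degrees of freedom and the probe sets tested (13269) were not. The group means were 209 ± 10.4 (SD, n = 3) in wild type, 95.2 ± 63.6 (SD, n = 3) in Snf5-/- and 91.7 ± 8.12 (SD, n = 4) in Brg1-/-. Brg1-/- against Snf5-/- gave 0.30 (adjusted p = 0.681), and 0.84 ± 0.28 without Snf5-/- replicate 2 (adjusted p = 0.117; deposited 0.66, adjusted p = 0.263), which did not pass either.

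Nfkbia encodes IkB-alpha, the inhibitor that NF-kB itself induces, and 4 probe sets measured it. The brightest, 1420088_at, read 4642, 3865 and 3095 in wild type arrays, 2889, 8182 and 3992 in Snf5-/- arrays and 3033, 2610.2, 2834 and 3391 in Brg1-/-. A second, 1448306_at, read 1169.8, 1023 and 874.5, 1061, 3444 and 1348, and 1013, 873, 1077 and 1419.9 in the same order. The third, 1449731_s_at, read 1322, 799 and 914, 739, 2307 and 1070.4, and 826, 679.9, 797 and 1043, and the dimmest, 1420089_at, read 229, 276 and 195, 231.5, 629.6 and 225, and 242, 220.2, 250.3 and 239. Snf5-/- replicate 2 was the highest array for all 4 probe sets, and apart from it the deposited intensities of the 3 genotypes overlapped. After quantile normalization 2 probe sets separated mutant from wild type arrays, 1 of them in Brg1-/- only. How often all tested probe sets do so was not computed, so this is a description only. At 1448306_at every mutant array (10.08 to 11.87, log2) lay above every wild type array (9.60 to 9.79). At 1420089_at Brg1-/- arrays (7.99 to 8.16) lay above wild type (7.42 to 7.93), whereas Snf5-/- arrays (7.68 to 9.42) overlapped with wild type. The changes in Snf5-/- were 0.62 to 1.04 (log2), with limma adjusted p of 0.0649 to 0.230. Without replicate 2 they were 0.11 to 0.48, with adjusted p of 0.0724 to 0.723. In Brg1-/- they were 0.26 to 0.62 on the quantile-normalized scale (adjusted p 0.198 to 0.584) and -0.37 to 0.09 on the deposited scale (0.225 to 0.912), so their sign depended on the scale for 2 of the 4. Without Snf5-/- replicate 2, 1448306_at passed in Brg1-/- on the quantile-normalized scale (0.62, adjusted p = 0.00722) and not on the deposited one (0.09, adjusted p = 0.727). In Snf5-/- without replicate 1, the same probe set passed as higher on both scales, and no other Nfkbia probe set did. Its changes there were 1.36 (limma adjusted p = 0.0317) and, on the deposited scale, 1.09 (0.0284).

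Relb encodes the subunit that acts mainly in the non-canonical branch of the pathway. It read 254, 195 and 196 in wild type arrays, 179.9, 416 and 279.5 in Snf5-/- arrays and 174, 171, 197 and 239 in Brg1-/-. Again Snf5-/- replicate 2 was highest. The deposited intensities of the genotypes otherwise overlapped, whereas after quantile normalization every mutant array (7.59 to 8.82, log2) lay above every wild type array (7.42 to 7.57). The share of all tested probe sets with such a separation was not computed. The change was 0.64 ± 0.26 in Snf5-/- (limma adjusted p = 0.110) and 0.29 without replicate 2 (adjusted p = 0.324). In Brg1-/- it was 0.28 ± 0.24 (adjusted p = 0.434), and the deposited change was -0.14 (adjusted p = 0.655).

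Il6, the cytokine interleukin-6, showed the widest spread within a genotype among the tested member probe sets. Its probe set 1450297_at read 244.5, 283 and 196 in wild type arrays, 108, 679.7 and 107 in Snf5-/- arrays and 80.8, 94.6, 50.2 and 152 in Brg1-/-. All 4 Brg1-/- arrays, and Snf5-/- replicates 1 and 3, lay below the lowest wild type array, whereas Snf5-/- replicate 2 lay above the highest. The Snf5-/- mean of 298 ± 330.3 (SD, n = 3), against 241 ± 43.8 (SD, n = 3) in wild type, lay far from each of its 3 arrays. The change in Snf5-/- was 0.01 ± 0.63 (limma adjusted p = 0.992, 95% interval -1.35 to 1.38), and without replicate 2 it was -0.92 ± 0.40 (adjusted p = 0.135; deposited -1.15, adjusted p = 0.0523). In Brg1-/- the change was -1.04 ± 0.59 (adjusted p = 0.223), and it passed on the deposited scale (-1.45, adjusted p = 0.0232). It passed on both scales without Snf5-/- replicate 2, with the same change of -1.04 and adjusted p = 0.0372 (deposited 0.00167). A fit of only the wild type and Brg1-/- arrays gave -1.04 on the quantile-normalized scale (limma adjusted p = 0.0405).

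Lif, leukemia inhibitory factor, belongs to the interleukin-6 family and signals through the same receptor chain, gp130. Probe set 1421207_at read 475, 379 and 269.8 in wild type arrays, 368, 1472 and 346 in Snf5-/- arrays and 403, 192, 334 and 302 in Brg1-/-. Snf5-/- replicate 2 lay above and Brg1-/- replicate 2 below all other arrays, and the remaining arrays of the 3 genotypes overlapped. The change was 0.92 ± 0.48 in Snf5-/- (limma adjusted p = 0.211), 0.20 without replicate 2 (adjusted p = 0.659), and 0.14 ± 0.45 in Brg1-/- (adjusted p = 0.846). The second Lif probe set, 1450160_at, was too dim to be tested, at 57.3, 79.7 and 66.7 in wild type arrays, 3.3, 48.4 and 14.1 in Snf5-/- arrays and 57.5, 59.5, 36.4 and 20.9 in Brg1-/-. All 3 Snf5-/- arrays and 2 of the 4 Brg1-/- arrays were at or below background. It gave only an untested bound on group means, at least 1.28-fold lower in Snf5-/- than in wild type. That bound does not hold array by array. After quantile normalization wild type replicate 1 (5.53, log2) lay below the background of Snf5-/- replicate 1 (5.88). The tested Lif probe set had a change of the other sign in Snf5-/- (0.92), which did not pass.

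Vcam1 encodes the adhesion molecule that binds leukocyte integrin alpha-4 beta-1, and it was the member that separated the mutants from each other. Its brightest probe set, 1448162_at, read 1571, 1555 and 1309.8 in wild type arrays, 1343, 2573 and 2228 in Snf5-/- arrays and 564, 856, 851 and 1121 in Brg1-/-. The 4 Brg1-/- arrays lay below all 3 Snf5-/- arrays, and on the deposited scale below all wild type arrays too. A second probe set, 1415989_at, read 862, 1174 and 999.7, 781, 1720.1 and 1656, and 546, 721, 810.0 and 1069 in that order, and the groups overlapped. The third, 1451314_a_at, read 489, 813 and 648, 511, 731 and 625, and 272.5, 447, 431 and 346, with Brg1-/- arrays below the others on the deposited scale only. In means, 1448162_at had 2048 ± 634 (SD, n = 3) in Snf5-/-, 1479 ± 146.5 (SD, n = 3) in wild type and 848 ± 228 (SD, n = 4) in Brg1-/-.

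Vcam1 was lower in Brg1-/- than in Snf5-/-, with a log2 difference of -1.05 ± 0.24 at 1448162_at (limma adjusted p = 0.0366, 2.07-fold; deposited -1.26, adjusted p = 0.00745). This was the only member probe set of 14 to pass between the mutants, with 0 higher and 1 lower, and 2 had an unadjusted p below 0.05 on the quantile-normalized scale (22.4% of all) and 8 on the deposited scale (20.6% of all). Among all tested probe sets 0.404% were higher and 1.70% lower on both scales, and 3.89% passed on the quantile-normalized and 3.64% on the deposited scale, where 1 member passed on each. The other Vcam1 probe sets had -0.57 (adjusted p = 0.269) and -0.58 (0.200), and -0.32 (0.579) and -0.41 (0.424) without Snf5-/- replicate 2. The call at 1448162_at rested on single arrays on the quantile-normalized scale: it passed in only 3 of the 10 fits that left out 1 array each, with a highest adjusted p of 0.0976 without Brg1-/- replicate 3. Adjusted p was 0.0851 without Snf5-/- replicate 2 (change -0.80), 0.0580 without Snf5-/- replicate 3, 0.0691 and 0.0739 without Brg1-/- replicates 1 and 2, and 0.0518 and 0.0555 without wild type replicates 2 and 3. On the deposited scale it passed in all 10 (highest adjusted p = 0.0287). Against wild type, 1448162_at had 0.75 ± 0.26 in Snf5-/- (adjusted p = 0.0669), 0.50 there without replicate 2 (adjusted p = 0.189), and -0.30 ± 0.24 in Brg1-/- (adjusted p = 0.398; deposited -0.84, adjusted p = 0.00861). For 1415989_at these changes were 0.68 in Snf5-/- (limma adjusted p = 0.153) and 0.11 in Brg1-/- (0.806, deposited -0.39 with 0.222). For 1451314_a_at they were 0.23 (0.604, deposited -0.05 with 0.901) and -0.35 (0.338, deposited -0.79 with 0.00796). The probe sets thus differed in sign in Brg1-/- after quantile normalization.

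Icam1, the ligand of the leukocyte integrin LFA-1, was measured by a single probe set. It read 210.2, 183 and 232 in wild type arrays, 126, 283.5 and 215 in Snf5-/- arrays and 76.6, 158, 124 and 179 in Brg1-/-. Brg1-/- arrays all lay below the wild type arrays on the deposited scale and overlapped with them after quantile normalization. The change was 0.17 ± 0.33 in Snf5-/- (limma adjusted p = 0.779) and -0.30 ± 0.31 in Brg1-/- (adjusted p = 0.529; deposited -0.70, adjusted p = 0.0699). Without Snf5-/- replicate 2 the Snf5-/- change was -0.14 (adjusted p = 0.812), which turned its sign but made no call.

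Snf5-/- replicate 2 lay above the mean of the other Snf5-/- arrays for every tested member probe set. Taking it out therefore lowered each Snf5-/- change by arithmetic, which is no separate result. In that fit 3 member probe sets passed on the quantile-normalized scale and on the deposited scale, all lower. These were both Ptgs2 probe sets and Tnfaip3. No other single array had that effect on the 3 together. Leaving out Snf5-/- replicate 1 instead gave 6 passing on the quantile-normalized scale, 5 of them higher, from Vcam1, Nfkbia and Relb. On the deposited scale it gave 3, of which 1 was higher (Nfkbia 1448306_at). Of all 13256 probe sets tested in that fit, 794 were higher and 774 lower on the quantile-normalized scale. On the deposited scale these counts were 265 and 1300. Which member probe sets passed therefore depended on the array left out. None of the changes that passed in the main fit turned its sign, but changes that passed only with an array left out could. Nfkbia 1420088_at had 0.92 on the quantile-normalized scale without Snf5-/- replicate 1 (limma adjusted p = 0.0472). On the deposited scale without replicate 2 it had -0.17. Among all 13269 probe sets tested without replicate 2, 2.98% rose and 8.76% fell in Snf5-/- on both scales, and 3.48% and 13.3% in Brg1-/-, where 4 members fell (both Ptgs2 probe sets, Tnfaip3 and Il6).

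**Figure D4:**
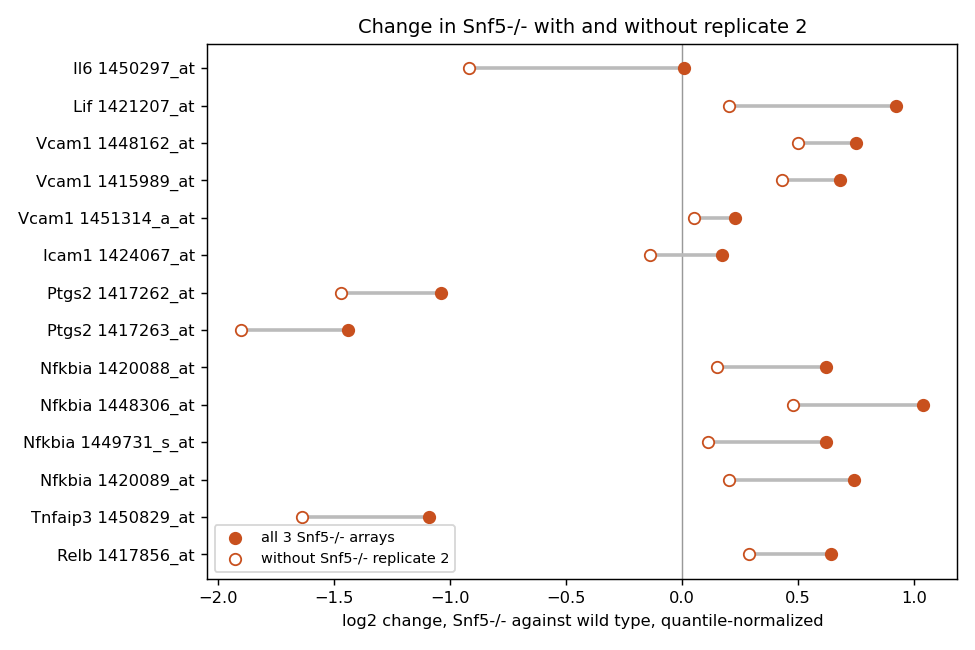
Log2 change in Snf5-/- against wild type (x axis, quantile-normalized) of the 14 tested member probe sets (y axis), filled with all 3 Snf5-/- arrays and open without replicate 2. Each open point lies to the left of its filled point, with the longest step for Il6, from 0.01 to -0.92. The direction of the steps follows from replicate 2 lying above the mean of the other Snf5-/- arrays for each probe set.

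The wider pathway was read from lists of NF-kB subunits, inhibitors, kinases and adaptors, receptors, ligands, interleukin-6 family genes, adhesion molecules, prostaglandin genes and other inflammatory targets. Of 112 genes in these lists that are not members, 98 were on the array and 70 were tested, each by its brightest probe set. In Snf5-/- 3 rose and 11 fell (4.29% and 15.7%), and in Brg1-/- 2 rose and 12 fell (2.86% and 17.1%), with median changes of 0.03 and -0.07. Over all tested probe sets the shares were 2.80% and 8.03% in Snf5-/-, and 3.20% and 12.2% in Brg1-/-. The excess of falls depended on the scale. On the quantile-normalized scale alone, 9 pathway genes were higher and 11 lower in Snf5-/- (all probe sets 1176 and 1074). In Brg1-/- 8 were higher and 12 lower there (all 1712 and 1626). On the deposited scale alone these counts were 3 and 17 in Snf5-/- (all 378 and 2387), and 2 and 31 in Brg1-/- (all 432 and 5774). Without Snf5-/- replicate 2, 2 rose and 15 fell in Snf5-/- (2.86% and 21.4%, against 2.98% and 8.76% of all), and 12 of the 14 calls made with every array were among them, all but Irf1 and Clcf1. On the quantile-normalized scale alone, 7 were higher and 15 lower in that fit (all probe sets 1205 and 1175). Between the mutants 0 of 70 passed limma on both scales, with 15 at an unadjusted p below 0.05 on the quantile-normalized and 19 on the deposited scale, where 22.4% and 20.6% of all tested probe sets had such a p.

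Receptors of interleukin-1 moved in opposite directions within each mutant. Il1r1, the signalling receptor, rose by 1.34 ± 0.30 in Snf5-/- (limma adjusted p = 0.0108) and 1.84 ± 0.28 in Brg1-/- (adjusted p = 0.000684). Its partner chain Il1rap fell by 0.92 ± 0.16 in Snf5-/- (adjusted p = 0.00296) and by 0.95 ± 0.15 in Brg1-/- (adjusted p = 0.000949). Of 10 tested receptor genes, Tlr4 (the endotoxin receptor) also fell in Snf5-/- and Ltbr (the lymphotoxin beta receptor) in Brg1-/-, and 7 did not pass in each mutant. In Snf5-/- the call of Il1r1 did not hold when wild type replicate 1 was left out (adjusted p = 0.0647), nor that of Tlr4 without wild type replicate 1 or 3 or Snf5-/- replicate 1 (0.0561, 0.104 and 0.0626).

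Among 15 tested kinases and adaptors only Ikbkg, the regulatory subunit of the IkB kinase (NEMO), passed on both scales. It fell by 0.96 ± 0.21 in Snf5-/- and by 0.76 ± 0.20 in Brg1-/-. Leaving out wild type replicate 2 ended the Brg1-/- call (limma adjusted p = 0.0788). The adaptor gene Myd88, named after its values were seen, passed on the quantile-normalized scale only. It was higher there by 0.65 in Snf5-/- (limma adjusted p = 0.00395) and 0.33 in Brg1-/- (0.0497). Its deposited changes were 0.37 (0.167) and -0.15 (0.487). None of the 3 tested subunits (Rela, Nfkb2 and Relb) and none of the 7 inhibitors and feedback genes passed on both scales in either mutant. Nfkb2 had 0.73 in Snf5-/- with adjusted p = 0.0303 after quantile normalization and 0.134 on the deposited scale, and 0.49 with adjusted p = 0.0714 without Snf5-/- replicate 2. By unadjusted limma p below 0.05 on the quantile-normalized scale, 2 subunits and 1 inhibitor passed in Snf5-/- (31.2% of all tested probe sets) and 0 and 0 in Brg1-/- (37.5% of all). On the deposited scale it was 1 and 1 in Snf5-/- (36.1% of all) and 1 and 5 in Brg1-/- (55.3% of all).

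Beside Ptgs2, 2 of 6 tested prostaglandin genes fell in Snf5-/- and 1 in Brg1-/-. Pla2g4a, the phospholipase that frees arachidonic acid, fell by 1.09 ± 0.20 in Snf5-/- (limma adjusted p = 0.00405) and by 0.61 ± 0.19 in Brg1-/- (adjusted p = 0.0351). Ptges, a prostaglandin E synthase, fell by 0.98 ± 0.21 in Snf5-/- (adjusted p = 0.00936). Of the 7 genes tested, each by its brightest probe set and Ptgs2 included, 0 rose and 2 fell in each mutant. Ptgis, prostacyclin synthase, went the other way in Snf5-/- and passed on the quantile-normalized scale only (0.70 ± 0.17, adjusted p = 0.0153; deposited 0.43, adjusted p = 0.115); it is named after its values were seen. The Brg1-/- call of Pla2g4a was lost without any 1 of 6 arrays, namely the 3 wild type replicates and Brg1-/- replicates 2, 3 and 4, with a highest adjusted p of 0.140.

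Of 14 tested genes of the interleukin-6 family, 1 rose and 2 fell in Snf5-/-, and 1 rose and 1 fell in Brg1-/-. On the quantile-normalized scale alone, 2 were higher and 2 lower in Snf5-/-, and 4 higher and 1 lower in Brg1-/-. Il11, a cytokine that also uses gp130, fell by at least 2.27-fold in Snf5-/-, where 1 of 3 arrays was at or below background and was set to it, and by a log2 value of 0.92 ± 0.28 in Brg1-/-. The cardiotrophin gene Ctf1 rose by 0.95 ± 0.15 and its relative Clcf1 fell by 0.78 ± 0.25 in Snf5-/-, and Socs3, which shuts off gp130 signalling, rose by 1.03 ± 0.24 in Brg1-/-. All of these calls were lost without 1 or another array. For Il11 these were wild type replicates 1 and 2 and Snf5-/- replicate 1 in Snf5-/- (highest limma adjusted p = 0.0784), and in Brg1-/- each wild type array and Brg1-/- replicates 1, 2 and 4 (0.137). For Ctf1 they were wild type replicates 2 and 3 and Snf5-/- replicates 1 and 3 (0.0936), and for Clcf1 all but wild type replicate 1 and Snf5-/- replicate 3 (0.162). Socs3 lost its call without wild type replicate 1 or 3 or Brg1-/- replicate 1, 3 or 4 (0.208).

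Of 5 tested adhesion genes, members included, 2 fell in Snf5-/- and 1 in Brg1-/-. Itgb1, the integrin beta-1 chain of the Vcam1 receptor, fell by 0.60 ± 0.12 in Snf5-/- (limma adjusted p = 0.00556) and by 0.46 ± 0.11 in Brg1-/- (adjusted p = 0.0102). Selp, the adhesion molecule P-selectin, fell in Snf5-/-, by at least 3.06-fold with the 1 of 3 arrays at or below background set to its background, and lost its call without any 1 of the wild type arrays (highest adjusted p = 0.0932).

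Of 15 other inflammatory targets, 1 rose and 2 fell in Snf5-/-, and 0 rose and 6 fell in Brg1-/-. On the quantile-normalized scale alone, 3 were higher and 2 lower in Snf5-/-, and 1 higher and 6 lower in Brg1-/-. The anti-apoptotic genes Cflar (c-FLIP) and Bcl2l1 (Bcl-xL) fell in both, with changes of -1.08 ± 0.13 and -1.16 ± 0.12 for Cflar and -0.54 ± 0.13 and -0.53 ± 0.12 for Bcl2l1, in Snf5-/- and Brg1-/-. Irf1, an interferon regulatory factor, rose by 1.12 ± 0.21 in Snf5-/- and lost its deposited call without Snf5-/- replicate 2 (limma adjusted p = 0.0658). The Snf5-/- call of Bcl2l1 was lost without wild type replicate 2 or Snf5-/- replicate 1 (0.0512 and 0.0503). The collagenase gene Mmp13 fell in Brg1-/- (621 ± 139, SD, n = 3, in wild type against 35.6 ± 23.8, SD, n = 4; limma adjusted p = 0.00219), where 2 of the 4 arrays were at or below background. With each such array set to its background, it was at least 9.62-fold lower. Mmp3 (stromelysin), Tnfaip2 and Csf1 (the macrophage growth factor) also fell there (-2.92 ± 0.72, -1.18 ± 0.28 and -0.75 ± 0.24) and are named after their values were seen. The call of Csf1 was lost without any 1 of the wild type arrays or Brg1-/- replicates 1, 2 and 3 (highest adjusted p = 0.116).

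**Figure D5:**
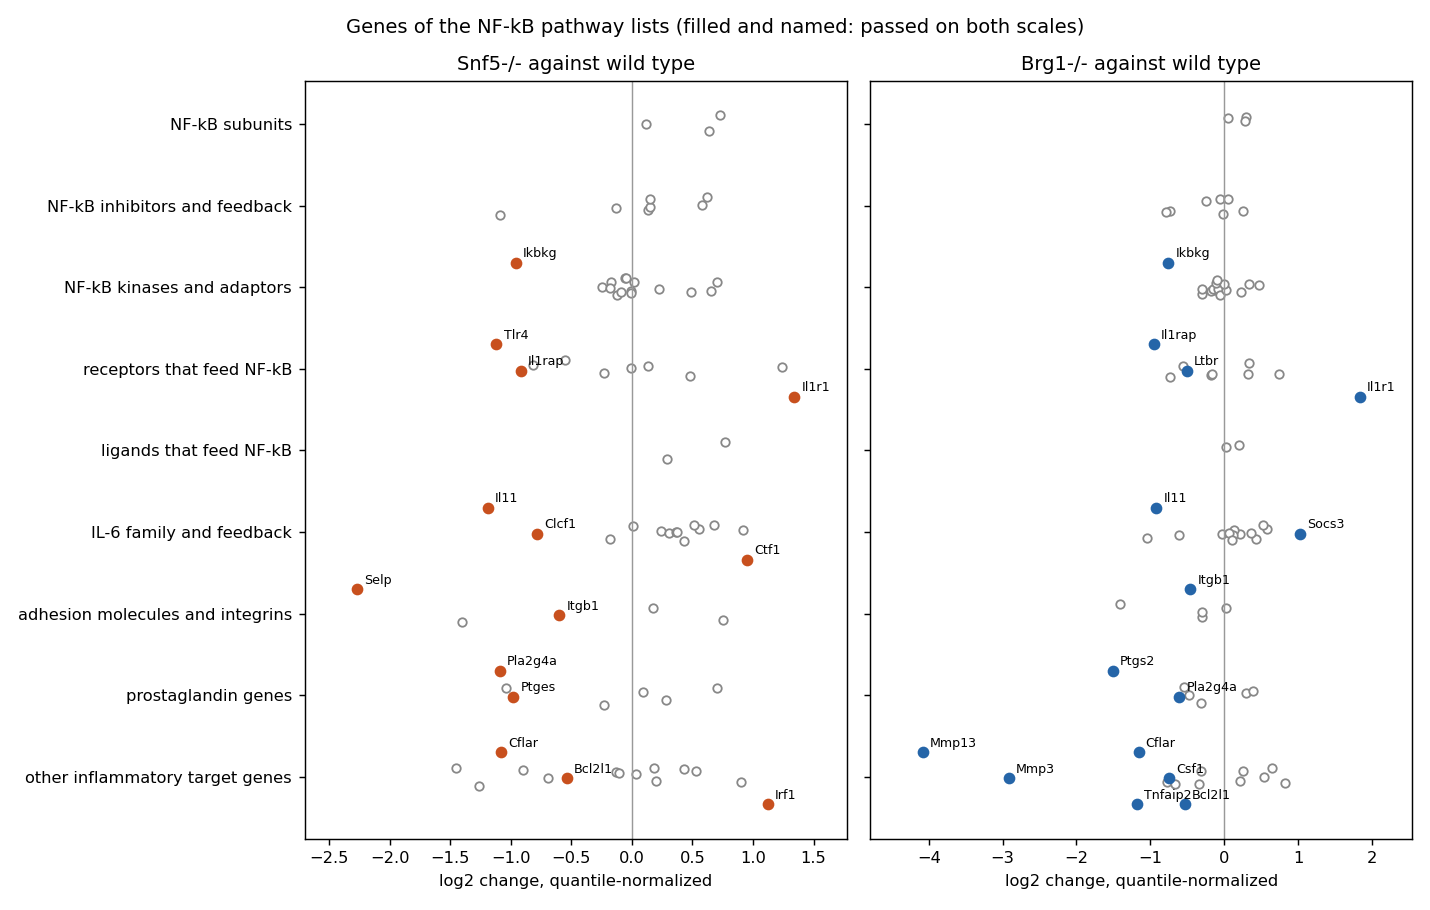
Log2 change against wild type (x axis, quantile-normalized) of the tested genes of each pathway list (y axis, with small vertical offsets for legibility), members included, in Snf5-/- (left) and Brg1-/- (right), filled and named where limma adjusted p was below 0.05 on both scales. The subunit, inhibitor and ligand rows hold no filled point, and Il1r1 is the rightmost filled point in both panels. Selp and Il11 in Snf5-/- and Mmp13 in Brg1-/- are drawn at fitted values that include arrays at or below background.

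The genes whose pattern over the 10 arrays was most like that of a member were named by the Pearson correlation of quantile-normalized log2 values, as a description over arrays that share genotypes. Nfkbiz, an atypical IkB protein, was nearest to Il6 (r = 0.97, and 0.91 over the 9 arrays without Snf5-/- replicate 2), followed by Tcirg1 (0.95) and the leukocyte gene Cd53 (0.94). The chemokine gene Cxcl1 was nearest to Nfkbia (0.97, and 0.85 without that array), followed by Relb (0.96 and 0.79) and Zfp275 (0.92 and 0.87). Relb in turn was nearest to Nfkbia, Cxcl1 (0.95 and 0.78) and the interferon-induced gene Ifit3 (0.95 and 0.89). Lif was closest to Letmd1 (0.94 and 0.70), Fcrls (0.93 and 0.74) and Birc3 (0.91 and 0.49), the last an inhibitor of apoptosis. Vcam1 was closest to Gm20559, the gelatinase gene Mmp2 and Shisa5 (0.95, 0.93 and 0.93, and 0.94, 0.87 and 0.86 without that array). Icam1 was closest to Rhog, Ifi47 and Pla2g12a (0.92, 0.92 and 0.88, and 0.87, 0.86 and 0.80). For Tnfaip3 these genes were Nop58, Snap23 and Nkain1 (0.95, 0.94 and 0.93, and 0.95, 0.97 and 0.92). Ptgs2 was closest to Scmh1, the integrin gene Itga5 and Msn (0.97, 0.97 and 0.96), and these values were 0.97, 0.98 and 0.96 without replicate 2. Lif and Nfkbia had r = 0.90 over 10 arrays and 0.32 over 9, and Lif and Icam1 had 0.33 and -0.88. For Vcam1 and Icam1 it was 0.82 and 0.68, and for Ptgs2 and Tnfaip3 0.71 and 0.67.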

How the data were processed

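The deposited table holds MAS5 intensity per probe set, made by the authors per the submitters' processing notes. For MAS5, its version, scaling target and filters are not given in the sources used here. Probe sets were named by the annotation supplied (20380 with 1 symbol, 691 with several, 1555 with none, and 64 controls). Log2 values were quantile-normalized (limma 3.58.1, R 4.3.3), with the deposited log2 values as the first alternative. Each probe set was fitted on all 10 arrays with lmFit and eBayes with an intensity trend (7 residual degrees of freedom, two-sided, 3 comparisons), with Benjamini-Hochberg adjustment over 13369 probe sets. Named were every member probe set, up to 3 genes per pathway list and mutant with the smallest adjusted p past 0.05 on both scales, and the 3 genes most correlated with each member. The script was tested on simulated data. Members and lists were chosen with earlier results of these data known. The number of arrays limits the precision.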

Additional observations from a re-analysis of the deposited data

Results flagged for a closer look

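Relb (1417856_at) in Brg1-/- had 1 array apart from the others. Brg1-/- replicate 4 stood at 7.99 on the quantile-normalized log2 scale against 7.69, 7.69 and 7.71 in replicates 1 to 3, so the gap to the nearest array was 0.924 of the whole range of the group. Its deposited intensity was 239 against 171 to 197. Chance alone marks about 1 in 20 groups in this way.

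Vcam1 (1448162_at) differed between the mutants by a test of the difference itself. The log2 difference of Brg1-/- from Snf5-/- was -1.05 (limma adjusted p = 0.0366), with 0.75 in Snf5-/- and -0.30 in Brg1-/- against wild type. On the quantile-normalized scale that call held in only 3 of the 10 fits that left out 1 array each. The other Vcam1 probe sets did not pass (limma adjusted p = 0.269 and 0.200).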

How the results depend on the processing

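No member change that passed in the main analysis turned its sign under any alternative run. Of 1242 recomputed member changes, 1033 kept their sign and their side of the threshold, 86 came to pass, 11 no longer passed and 112 turned sign without passing. These data cannot fix how many member probe sets changed, since that count moved with the scale and with single arrays; dim probe sets such as Lif 1450160_at were limited by background.

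Member probe sets that passed in Snf5-/- were 1 in the main analysis, 3 on the deposited scale, 2 with deposited values centred on the array median, 0 with the brightest probe set of each gene only, and 0 to 6 with 1 array left out (2 to 3 on the deposited scale, chosen after seeing the data, as were all fits that left out an array on that scale). In Brg1-/- they were 2, then 6 on the deposited scale, 1 with the brightest probe sets, 5 with only the arrays of the groups compared, and 1 to 5 with 1 array left out (deposited 4 to 7). Between the mutants 1 became 0 without an intensity trend and 0 with only the arrays compared, and ran from 0 to 1 with 1 array left out (deposited 1 to 3). Over all probe sets, 2250 passed in Snf5-/- (1224 to 2403 with 1 array left out; deposited 1565 to 3109), 3338 in Brg1-/- (2306 to 3590; 6206 on the deposited scale, 4218 to 6526 with 1 array left out) and 520 between the mutants (112 to 755; deposited 138 to 1084; 268 without an intensity trend; 203 with only the arrays compared).

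Replicate numbers were not used to pair the samples in the main fit. Deviations of same-numbered arrays correlated at -0.09 to 0.12. Differently numbered arrays were not set beside them, so these values cannot exclude a pairing. With the replicate block, member counts were 4 in Snf5-/- and 2 between the mutants. Of the changes that lost their call, Vcam1 (1448162_at) between the mutants also did so without an intensity trend (adjusted p = 0.0769) and with only the arrays compared (0.0736). The cause of these differences was not tested.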
